A study of Mus musculus with 24 samples.

Results

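This section describes the direct contrast between the LPS and the IL-4 state in mouse bone marrow-derived macrophages labelled OGT knockout. It rests on 8 of the 24 libraries of the series: all 4 labelled OGT knockout (KO) with LPS and all 4 labelled KO with IL-4, taken by their labels alone. The cells came from C57BL/6J mice with an age label of 12 weeks, and the stimulated cells received LPS at 100 ng/ml or IL-4 at 10 ng/ml for 12 hours. The other libraries are 4 unstimulated KO libraries (M0) and 12 from wild-type (WT) cells in the same 3 states, and they serve below as reference points. The labels name the genotype only as OGT KO, and the sources used here do not give the deleted part of the gene, the driver of the deletion or the number of animals. Nothing in the labels says whether libraries of a group came from separate animals or cultures, so the spread behind each p-value is that between libraries and may be technical.

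OGT places the sugar O-linked N-acetylglucosamine (O-GlcNAc) on serines and threonines of nuclear and cytosolic proteins, and OGA, listed under its older symbol Mgea5, removes it. LPS, a component of the outer membrane of Gram-negative bacteria, binds TLR4 and drives NF-kB and, through interferon beta, an antiviral programme. This state is called M1. IL-4 binds a receptor that contains IL-4Rα and activates STAT6, and the resulting state, M2, is marked in mice by Arg1, Retnla, Chil3 and Mrc1. The contrast asks which genes tell these states apart in cells of this label.

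The KO libraries of a state carry the label numbers 5 to 8. Gene counts totalled 77270026, 68769362, 172771 and 69072384 in KO LPS libraries 5, 6, 7 and 8, and 94942464, 70424992, 89091735 and 71586124 in the KO IL-4 libraries. Levels are CPM, a gene's counts scaled to a common library total with edgeR's effective library sizes. In the shallow KO LPS library 7 a single count is worth 5.98 CPM, and a count of 0 allows up to 17.9 CPM, against 0.0495 to 0.055 CPM in the other LPS libraries. These limits cover counting error only. Among genes of at least 200 CPM, library 7 lay below libraries 5, 6 and 8 by a median of 0.305, 0.291 and 0.182 on the log2 scale. WT LPS libraries 1 and 2 were shallow as well, with 209368 and 201097 counts. A single count there is worth 5.16 and 5.23 CPM, and a count of 0 allows up to 15.5 and 15.7 CPM. Within both KO states, library 5 resembled 6 more closely than 8: the chi-square per degree of freedom was 7.65 for 5 against 6 and 80.8 for 5 against 8 in LPS, and 15.7 and 74.8 in IL-4. In LPS, library 7 is too shallow for this comparison. In IL-4 it lay closer to 8, at 28, than to 5, at 62.5.

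Ogt transcript in KO cells stood at 34.2, 37.6, 53.8 and 37 CPM in LPS libraries 5 to 8 and at 34.8, 31.9, 33.6 and 32.8 CPM in IL-4 libraries 5 to 8. In WT it stood at 56.7, 68, 55 and 57.2 CPM in LPS libraries 1 to 4 and 49.2, 53.1, 56.9 and 58.2 CPM in IL-4 libraries 1 to 4, so all KO values were below all WT values of the same state and KO transcripts were still counted. Ogt did not differ between the KO states beyond the test's threshold, with a log2 fold change (LPS against IL-4) of 0.13 ± 0.062 (SE, adjusted p = 0.0639). It passed the threshold with the replicate block over all libraries, at 0.14, without the shallow libraries, at 0.17, without LPS library 5, at 0.22, and without LPS library 8, at 0.16.

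All 13 macrophage markers were counted in both states, with a summed level of 10071 to 12811 CPM in LPS and 6005 to 6433 CPM in IL-4. Markers of T and NK cells summed to 6.29 CPM or less, and the globin genes were at 0 in all 8 libraries. The erythroid and megakaryocyte list that holds them summed to 421 to 519 CPM in LPS and 345.5 to 415 CPM in IL-4. Most of this was Pf4, with means of 471 and 373 CPM. In LPS and IL-4, B cell markers summed to 17.9 to 34.9 and 22.8 to 24.1 CPM. Mast cell and basophil markers summed to 14 to 26.6 and 6 to 9.15 CPM, and osteoclast markers to 187 to 263 and 127 to 146 CPM. Stromal markers were abundant: their 10 genes summed to 20075 to 23052 CPM in LPS and 13616 to 17685 CPM in IL-4, with Col1a1, a fibrillar collagen chain, at 7538 ± 713 and 5944 ± 803 CPM (SD, n = 4). Of these 10 genes, 9 were called higher in LPS and Postn higher in IL-4, a call lost in 6 alternatives, among them DESeq2 (adjusted p = 0.103), the KO libraries alone (0.0719), number pairs summed (0.205) and leaving out LPS library 5 or 6 or IL-4 library 7 (0.179, 0.132 and 0.0517). Endothelial markers summed to 87.8 to 138 CPM in LPS, mostly Kdr, and to 20.1 to 49 CPM in IL-4. Kdr was at 67.2 ± 19.6 and 3.07 ± 0.614 CPM (SD, n = 4). Of the 8 endothelial markers, 1 was called higher in LPS and 7 were not called. Over all 14693 genes tested, 31.6% were called higher in LPS and 36.2% higher in IL-4. These shares are the background for the stromal and endothelial counts. The 9 neutrophil markers found summed to 30.2 to 71.8 CPM in LPS and 10.2 to 28.9 CPM in IL-4. The part of these markers in the gene results below was not tested. In such bulk RNA, fewer cells of a type and less RNA per cell cannot be told apart.

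Of 14693 genes tested, 4642 (31.6%) were called higher in LPS and 5320 (36.2%) higher in IL-4 at an adjusted p under 0.05, together 67.8% of all genes. With a difference of at least 4-fold, 967 genes (6.58%) were higher in LPS and 444 (3.02%) in IL-4, and at least 16-fold separated 356 and 92 genes. All 4 LPS values lay above all 4 IL-4 values for 2686 genes (18.3%) and below them for 4188 (28.5%). Without the shallow library these counts were 4503 (30.6%) and 4998 (34.0%), a larger gain on the LPS side. With 67.8% of genes called, the size of a difference separates genes better than the call. The shares of 31.6% and 36.2% are the background for each list count below. For 4259 of the 10610 genes with at least 5 CPM in the higher state, the 95% interval of the log2 difference lay within 0.5 either way. The median log2 fold change over all genes was -0.05, and positive values below mean higher in LPS.

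**Figure D1:**
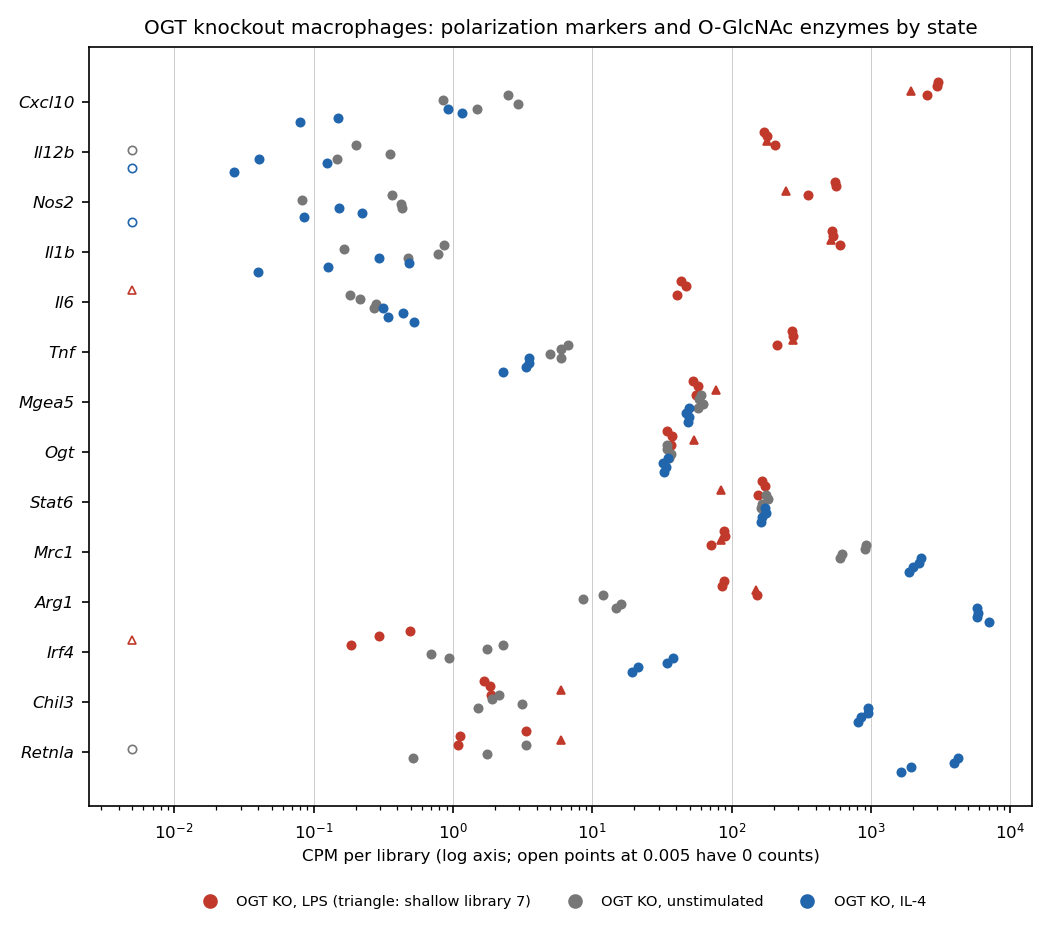
CPM per library (log axis) of 12 polarization genes and of Ogt and Mgea5 in KO cells after LPS (red), unstimulated (grey) and after IL-4 (blue), with the shallow LPS library 7 as a triangle and open points for 0 counts. Cxcl10 spans 1932 to 3013 CPM after LPS and 0.0804 to 1.16 CPM after IL-4, while Arg1 spans 85.3 to 153 and 5763 to 7045 CPM.

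The genes that stood highest in LPS over IL-4 were chemokines, cytokines, interferon-inducible GTPases and inflammatory enzymes. Cxcl9, Cxcl10 and Cxcl11, neighbouring genes on chromosome 5 that encode the ligands of CXCR3 and attract T cells, had 3 of the 5 largest fitted differences. Cxcl10 (chr5:92346638-92348889, GRCm38.p6, minus strand) was counted at 3013, 3000.1, 1932 and 2523 CPM in LPS libraries 5 to 8 and at 0.92, 1.16, 0.149 and 0.0804 CPM in IL-4 libraries 5 to 8. Every LPS value lay far above every IL-4 value, and the M0 values of 2.49, 0.845, 2.91 and 1.49 CPM were as low as those in IL-4 on that scale. The log2 fold change was 12.17 ± 0.59 (SE, adjusted p = 5.96e-16). Cxcl9 (chr5:92321331-92328079) had 1202, 1273, 915 and 1142 CPM in LPS and 0.194, 0.718, 0.0213 and 0.0402 CPM in IL-4, a log2 fold change of 12.31 ± 0.54. For Cxcl11 (chr5:92359544-92363296) the LPS values were 102, 99.7, 65.8 and 65.8 CPM, and in IL-4 only library 5 held counts, at 0.0409 CPM. None of these 3 genes overlapped between the states.

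The promoters of 3 interferon or NF-kB regulated genes are shown as examples of the motifs whose shares among all promoters are given at the end. Each is the 250 bases before the RefSeq start site on GRCm38.p6, 5′ to 3′ on the gene's strand, for Cxcl10 (chr5:92348890-92349139, minus strand), the guanylate-binding protein gene Gbp5 (chr3:142496684-142496933, plus strand) and the antiviral gene Ifit3 (chr19:34583279-34583528, plus strand). Capitals mark matches, on either strand, to the interferon-stimulated response element core (TTTC, 2 free bases, TTTC), to the STAT palindrome TTCNNNGAA or to the NF-kB consensus. Overlapping NF-kB matches run together.
Cxcl10: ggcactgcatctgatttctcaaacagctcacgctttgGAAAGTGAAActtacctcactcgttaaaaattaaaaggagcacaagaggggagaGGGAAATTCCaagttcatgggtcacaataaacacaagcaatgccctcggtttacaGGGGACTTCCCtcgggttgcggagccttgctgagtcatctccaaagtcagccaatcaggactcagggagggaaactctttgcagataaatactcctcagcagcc
Gbp5: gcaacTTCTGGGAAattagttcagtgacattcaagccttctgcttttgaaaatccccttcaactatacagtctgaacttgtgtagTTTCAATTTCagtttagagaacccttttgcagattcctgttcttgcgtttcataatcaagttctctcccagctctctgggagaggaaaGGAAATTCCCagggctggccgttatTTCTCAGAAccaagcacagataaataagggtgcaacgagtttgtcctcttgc
Ifit3: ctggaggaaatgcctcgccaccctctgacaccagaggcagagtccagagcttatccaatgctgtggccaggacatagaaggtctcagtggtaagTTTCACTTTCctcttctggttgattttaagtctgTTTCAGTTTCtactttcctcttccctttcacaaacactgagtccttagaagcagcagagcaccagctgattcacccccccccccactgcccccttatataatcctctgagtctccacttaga
Cxcl10 held 1 response element match and NF-kB matches at 2 separate places, Gbp5 held all 3 motifs, and Ifit3 held 2 response element matches, 147 to 156 and 113 to 122 bases before the start. A match is a description of the letters, not a shown binding site.

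Interferon-inducible GTPases, which attack vacuoles of intracellular microbes, were all called higher in LPS (16 of 16, at least 4-fold in 16), with a median log2 fold change of 7.62 against -0.05 for all genes. Gbp5 was at 922, 942, 688 and 793 CPM in LPS and 1.39, 1.08, 0.787 and 0.549 CPM in IL-4, a log2 fold change of 9.80 ± 0.24. Gbp10 had no count in any IL-4 library and 12.5, 13.5, 5.98 and 12.5 CPM in LPS, at least 1444-fold higher over the pooled libraries with a floor of 3 counts over the IL-4 group. The value of library 7 rests on a single count. Gbp4 and Gbp6, with log2 fold changes of 11.02 and 8.47, have close paralogues in the same cluster, as does Gbp10, so reads may have been split between them.

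Type I interferon-stimulated antiviral genes were likewise all called higher in LPS (32 of 32, at least 4-fold in 32, median 5.86). Ifit3, an RNA-binding antiviral protein, was counted at 1671, 1735, 1238 and 1635 CPM in LPS and 5.39, 1.31, 0.574 and 0.764 CPM in IL-4, and IL-4 library 5 was the highest of its group, still far below LPS. Rsad2 (viperin) differed by 10.30 ± 0.54 (SE, adjusted p = 3.27e-15) and Irf7, the transcription factor of the interferon feedback loop, by 8.33 ± 0.34. Cd69, an activation marker of leukocytes, was at 181, 185, 173 and 155 CPM in LPS and at no more than 0.143 CPM in IL-4. Ifi205 (9.68) had the same direction, as did Shisa3 (10.80) and Ifit1bl1 (11.50), which are not in this list. Ifi205 and Ifit1bl1 belong to clusters of similar genes.

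Inflammatory chemokines were called higher in LPS in 18 of 18 cases, 13 of them at least 4-fold, with a median of 6.07 (5.53 with genes at 0 in IL-4 set to their bound). Ccl5, which attracts T cells and monocytes, was at 3308, 3375, 2661 and 3127 CPM in LPS and 1.44, 1.34, 0.17 and 0.107 CPM in IL-4, with no overlap. Its log2 fold change was 11.99 ± 0.81 (SE, adjusted p = 5.67e-13). Ccl20, the ligand of CCR6, was at 0 counts in all 4 IL-4 libraries and at 4.18, 5.1, 17.9 and 7.27 CPM in LPS, at least 624-fold higher.

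Of 24 genes tested from the list labelled proinflammatory cytokines, 21 were called higher in LPS, 1 higher in IL-4 and 2 were not called (median 4.84). The 21 include Il10 (4.40) and the IL-1 receptor antagonist gene Il1rn (4.86), so the list is not confined to proinflammatory members. Il1b was at 523, 529.8, 514 and 601 CPM in LPS and 0.296, 0.483, 0.128 and 0.0402 CPM in IL-4, a log2 fold change of 11.18 ± 0.49 (SE, adjusted p = 6.8e-17). Il12b, which encodes the p40 subunit shared by IL-12 and IL-23, was at 171, 180.2, 179 and 204 CPM in LPS and at most 0.124 CPM in IL-4. The states did not overlap for either gene. Tnf kept a low level in IL-4: its values were 273, 275, 275 and 212 CPM in LPS and 3.51, 3.51, 3.32 and 2.3 CPM in IL-4, 80.2-fold apart (log2 fold change 6.33 ± 0.14, adjusted p = 6.26e-23), and library 8 was the lowest of both groups. Il6 was at 43.5, 47.1, 0 and 40.4 CPM in LPS and 0.317, 0.442, 0.34 and 0.523 CPM in IL-4. The 0 in library 7 made the groups overlap; its counting limit of 17.9 CPM is below the other 3 LPS values, which all lay above the IL-4 values. The log2 fold change of Il6 was 6.74 ± 0.21 (SE, adjusted p = 5.3e-20). Il27, an IL-12 family cytokine subunit, differed by 8.09 ± 0.21. The single member higher in IL-4 was Edn1, the vasoconstrictor endothelin-1, at 27.1, 27, 12 and 18 CPM in LPS and 54, 50.1, 65.2 and 72.9 CPM in IL-4, without overlap (log2 fold change -1.34 ± 0.16, adjusted p = 2.54e-08).

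All 24 inflammatory effector enzymes and secreted factors tested were called higher in LPS (median 4.65). Nos2, the inducible nitric oxide synthase, was at 555, 556, 245 and 354 CPM in LPS and 0.153, 0.221, 0.0851 and 0 CPM in IL-4. In LPS, libraries 5 and 6 were above 7 and 8, and all 4 values lay far above those in IL-4. Its log2 fold change was 11.96 ± 0.33 (SE, adjusted p = 4.75e-21). Irg1 (Acod1 in RefSeq), which makes itaconate from a citric acid cycle intermediate, was at 3762, 3848, 3002 and 3272 CPM in LPS and 1.29, 1.45, 0.0957 and 0.107 CPM in IL-4. Saa3, an acute-phase serum amyloid protein, had the highest level among the 15 largest LPS differences, at 18039, 18420.0, 12845 and 14281 CPM in LPS and 6.41, 7.44, 1.29 and 1.67 CPM in IL-4 (log2 fold change 11.89 ± 1.02, adjusted p = 9.16e-11). Hdc, which makes histamine, differed by 10.03 ± 0.28. Ch25h, which makes 25-hydroxycholesterol, was the exception in size: 47.9 ± 2.51 CPM in LPS and 28.4 ± 4.69 CPM in IL-4 (SD, n = 4), with M0 at 2.96 ± 0.535 CPM. Its log2 fold change was 0.75 ± 0.13 (SE, adjusted p = 7.68e-06).

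NF-kB subunits, regulators and feedback inhibitors were called higher in LPS in 26 of 26 cases, 19 at least 4-fold, median 3.16. Traf1, a TNF receptor adaptor and NF-kB target, was at 229, 222, 185 and 192 CPM in LPS and 0.859, 0.939, 0.744 and 0.831 CPM in IL-4 (log2 fold change 7.98 ± 0.14, adjusted p = 1.12e-24). Nfkbie, an inhibitor that holds NF-kB in the cytosol, differed by 4.63 ± 0.13, Icam1, an adhesion ligand of leukocyte integrins, by 4.82 ± 0.083, and Dusp2, a MAP kinase phosphatase, by 4.86 ± 0.17.

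**Figure D2:**
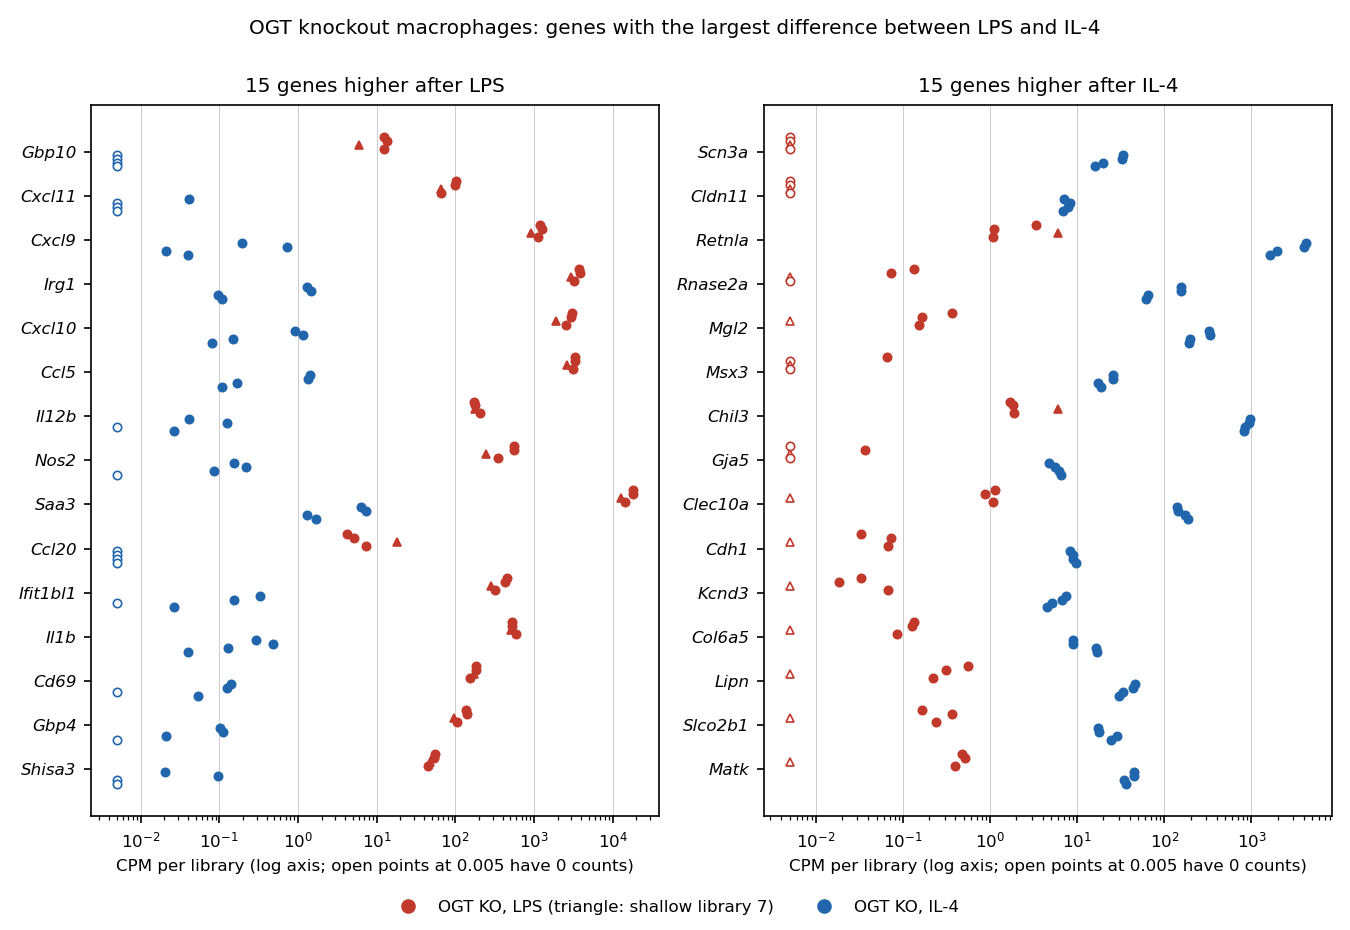
CPM per library (log axis) of the 15 genes with the largest log2 fold change in each direction among called genes of at least 5 CPM without overlap, in the 4 KO LPS (red, triangle for library 7) and 4 KO IL-4 libraries (blue), open points marking 0 counts. Saa3 reaches 18420.0 CPM after LPS and Retnla 4244 CPM after IL-4, and no gene shown overlaps between the states.

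Pattern recognition and inflammasome genes were divided: of 29 tested, 21 were called higher in LPS, 4 higher in IL-4 and 4 not called (median 2.24). Cd14, the co-receptor that hands LPS to TLR4, was at 984, 942, 819 and 916 CPM in LPS and 28.3, 28.1, 32.1 and 31.8 CPM in IL-4, 30.9-fold apart. Tlr2, the receptor for bacterial lipoproteins, differed by 4.84 ± 0.099, Clec4e (Mincle), a receptor for mycobacterial glycolipid, by 10.17 ± 0.27, and the scavenger receptor Marco by 9.30 ± 0.53. In all, 4 members were higher in IL-4, among them Pycard, whose call was lost under some alternatives, and Nlrp1b, named after its values were seen. Tlr4 itself went the other way, at 37.2, 39.2, 29.9 and 30.1 CPM in LPS and 75, 70.3, 60.5 and 53.6 CPM in IL-4, against 40.2, 37.2, 31 and 31.9 CPM in M0, with a log2 fold change of -0.87 ± 0.10 (SE, adjusted p = 3.26e-08). Clec7a (Dectin-1), the receptor for fungal beta-glucan, was at 34.1, 33.6, 41.9 and 38.5 CPM in LPS and 386, 356, 386 and 389.9 CPM in IL-4. The states were 10.7-fold apart without overlap (log2 fold change -3.42 ± 0.067, adjusted p = 5.27e-24).

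Among 25 genes of costimulation, checkpoint ligands and antigen presentation, 17 were called higher in LPS, 4 higher in IL-4 and 4 not called (median 2.49). Cd40, which receives help from T cells, was at 713 ± 96.2 CPM in LPS and 26.5 ± 3.23 CPM in IL-4 (SD, n = 4), and Slamf7, Slamf1 and Icosl had log2 fold changes of 4.79, 5.53 and 4.63. Pdcd1lg2, which encodes the PD-1 ligand PD-L2, was at 0.958, 0.752, 0 and 0.935 CPM in LPS and 24.6, 24.5, 19.1 and 19.2 CPM in IL-4, against at most 0.113 CPM in M0 (log2 fold change -4.63 ± 0.14, adjusted p = 4.46e-20). H2-DMa, which helps load peptide on MHC class II, was also higher in IL-4, with a log2 fold change of -1.45 ± 0.13. The other members higher in IL-4 were H2-DMb1 and Ciita, the master regulator of MHC class II genes, which is below 5 CPM and was named after its values were seen. For H2-DMb1 the fitted log2 fold change of -0.28 ± 0.092 and the means had opposite signs, with 41.3, 37, 77.7 and 32.8 CPM in LPS and 48.1, 52.2, 40.6 and 41 CPM in IL-4, and the call was lost in 5 alternatives.

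The genes that stood highest in IL-4 over LPS included secreted M2 proteins and lectins together with ion channel and junction genes. Retnla (RELMα, chr16:48842609-48844461, plus strand), a secreted cysteine-rich protein of type 2 immunity, was at 3.35, 1.12, 5.98 and 1.09 CPM in LPS libraries 5 to 8 and 4244, 3962, 1946 and 1646 CPM in IL-4 libraries 5 to 8. All IL-4 values lay far above all LPS values, and IL-4 libraries 5 and 6 were above 7 and 8. The log2 fold change was -10.62 ± 1.01 (SE, adjusted p = 6.33e-10). Chil3 (Ym1), a chitinase-like lectin, was at 1.68, 1.83, 5.98 and 1.87 CPM in LPS, where library 7 rests on 1 count, and at 957, 946, 847 and 813 CPM in IL-4 (log2 fold change -8.95 ± 0.29, adjusted p = 1.25e-19). Arg1 (chr10:24915207-24927470), which cleaves arginine to ornithine and urea, was at 88.5, 85.3, 149.5 and 153 CPM in LPS, 12, 8.54, 16.1 and 14.8 CPM in M0 and 5763, 5877, 5770.2 and 7044 CPM in IL-4. LPS thus stood above M0, with a log2 fold change of 3.11 ± 0.21 (SE, adjusted p = 1.09e-12), and IL-4 above both, 55.1-fold over LPS (log2 fold change -5.79 ± 0.24, adjusted p = 3.03e-17).

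Promoters of 4 genes higher in IL-4 are shown for their match to the STAT6 palindrome (TTC, 4 free bases, GAA), in capitals, again as the 250 bases before the RefSeq start on GRCm38.p6: Retnla (chr16:48842359-48842608, plus strand), the integrin gene Itgax (chr7:128129300-128129549, plus strand), Pdcd1lg2 (chr19:29410669-29410918, plus strand) and Clec7a (chr6:129472780-129473029, minus strand, the first of 2 listed starts). The first capitals in Pdcd1lg2 mark an NF-kB match.
Retnla: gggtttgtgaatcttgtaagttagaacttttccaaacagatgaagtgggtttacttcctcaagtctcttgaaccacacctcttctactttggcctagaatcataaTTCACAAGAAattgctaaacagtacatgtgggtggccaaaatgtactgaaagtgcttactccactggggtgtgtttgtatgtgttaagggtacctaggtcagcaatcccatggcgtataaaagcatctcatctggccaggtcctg
Itgax: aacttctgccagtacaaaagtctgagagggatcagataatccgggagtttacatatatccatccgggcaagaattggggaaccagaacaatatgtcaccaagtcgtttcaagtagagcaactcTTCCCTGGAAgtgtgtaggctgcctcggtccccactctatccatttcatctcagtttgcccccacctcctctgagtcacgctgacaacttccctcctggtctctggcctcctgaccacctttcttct
Pdcd1lg2: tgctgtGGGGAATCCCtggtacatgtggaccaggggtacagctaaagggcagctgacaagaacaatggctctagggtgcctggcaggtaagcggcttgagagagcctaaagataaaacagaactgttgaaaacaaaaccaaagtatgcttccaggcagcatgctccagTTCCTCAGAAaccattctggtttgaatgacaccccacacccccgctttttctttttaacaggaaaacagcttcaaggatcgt
Clec7a: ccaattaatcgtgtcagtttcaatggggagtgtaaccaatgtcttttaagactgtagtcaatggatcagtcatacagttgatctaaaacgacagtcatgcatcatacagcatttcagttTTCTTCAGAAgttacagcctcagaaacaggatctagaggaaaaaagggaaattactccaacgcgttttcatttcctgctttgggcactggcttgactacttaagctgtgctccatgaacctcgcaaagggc
The STAT6 matches lay 136 to 145 bases before the start in Retnla, 118 to 127 in Itgax, 73 to 82 in Pdcd1lg2 and 122 to 131 in Clec7a.

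Of 46 IL-4 and STAT6 marker genes tested, 35 were called higher in IL-4, 8 higher in LPS and 3 not called, with a median of -3.24 (-2.95 with bounds). Mrc1, the mannose receptor CD206, was at 87.5, 89.5, 83.7 and 70.7 CPM in LPS, 924, 908, 624 and 599 CPM in M0 and 2281, 2206, 1995 and 1883 CPM in IL-4. The 3 states did not overlap: the log2 fold change against M0 was -3.21 ± 0.14 (SE, adjusted p = 9.44e-17) for LPS and 1.45 ± 0.12 (SE, adjusted p = 2.53e-10) for IL-4. The galactose-type lectins Mgl2 and Clec10a were at 329, 331, 195 and 189.8 CPM and 141, 143, 174 and 186 CPM in IL-4 and at no more than 0.363 and 1.12 CPM in LPS. Clec10a had 23.5 ± 0.413 CPM in M0 (SD, n = 4), Mgl2 0.974 ± 0.154 CPM. Rnase2a, an eosinophil-type ribonuclease with close paralogues, was at 154, 157, 65 and 62.4 CPM in IL-4 and had counts in 2 LPS libraries, 0.132 and 0.0734 CPM.

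Egr2, a zinc-finger factor of the IL-4 response, was at 5.5, 6.68, 0 and 5.74 CPM in LPS and 113, 118, 99.3 and 97.2 CPM in IL-4 (log2 fold change -4.16 ± 0.1, adjusted p = 2.47e-22). Itgax, the integrin CD11c, was 19.4-fold higher in IL-4, at 249.8, 243, 238 and 215 CPM against 11.7, 10.7, 23.9 and 14 CPM. Cdh1, the adhesion protein E-cadherin that macrophages use in fusion, was at 8.19, 8.89, 8.97 and 9.55 CPM in IL-4 and at most 0.0734 CPM in LPS. Matk, a tyrosine kinase of the Csk family, differed by -6.43 ± 0.16 and Cd163, the haemoglobin scavenger receptor, by -4.71 ± 0.27. Atp6v0d2, a proton pump subunit, differed by -3.71 ± 0.12.

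The genes of this list that were higher in LPS included the receptor itself. Il4ra was at 528, 513, 233 and 351 CPM in LPS, 182, 192, 179.8 and 171 CPM in IL-4 and 215, 197, 173 and 176 CPM in M0, with all LPS values above all others (log2 fold change 1.29 ± 0.12, adjusted p = 3.01e-10). Ccl22, the CCR4 ligand, was at 13.3, 13.4, 17.9 and 14.7 CPM in LPS and 4.31, 3.96, 3.54 and 2.85 CPM in IL-4, both above the M0 mean of 0.0446 ± 0.0426 CPM (SD, n = 4). Slc7a2, the arginine transporter CAT2, was at 409.9 ± 47.5 CPM in LPS and 308 ± 10.8 CPM in IL-4, and M0 stood at 13.9 ± 1.03 CPM, so both stimuli were above M0 and LPS stood higher by only 0.43 ± 0.1 (SE, adjusted p = 0.000464). Ccnd2, a D-type cyclin, differed by 0.88 ± 0.095. Stat6 itself was not called (log2 fold change -0.08 ± 0.074, adjusted p = 0.339), at 165, 175, 83.7 and 154 CPM in LPS and 175, 177, 165 and 163 CPM in IL-4. It passed the threshold in the IL-4 direction with upper-quartile factors, at -0.20, and without any 1 of the 4 IL-4 libraries, at -0.17 to -0.21.

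Several of the 15 largest IL-4 genes are in none of the gene lists used here. Scn3a, a neuronal voltage-gated sodium channel subunit, had 0 counts in all LPS libraries and 33.5, 32.4, 19.6 and 16.2 CPM in IL-4, at least 1486-fold higher. Its M0 values were at most 0.0909 CPM. Cldn11, a tight junction claudin, had 0 counts in LPS and 7.09, 8.18, 7.73 and 6.86 CPM in IL-4, at least 432-fold higher. Gja5, the gap junction protein connexin 40, had 2 counts in LPS and 4.79, 5.55, 6.14 and 6.54 CPM in IL-4, a pooled ratio of 497 with a counting interval of 137 to 4109. The potassium channel gene Kcnd3, the homeobox gene Msx3, the collagen gene Col6a5 and the lipase gene Lipn had log2 fold changes of -7.14, -9.77, -6.78 and -6.70. Slco2b1, an organic anion transporter, differed in kind: at 0.165, 0.367, 0 and 0.238 CPM in LPS, 17.5, 17.9, 28.9 and 24.3 CPM in IL-4 and 43, 41.1, 37.7 and 35.8 CPM in M0, it was highest without a stimulus. For the other 14 of these 15 genes, all IL-4 values exceeded all M0 values, and for all 15 largest LPS genes, all LPS values exceeded all M0 values. The contrasts with M0 share the stimulated libraries with the main contrast and are given only side by side.

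**Figure D3:**
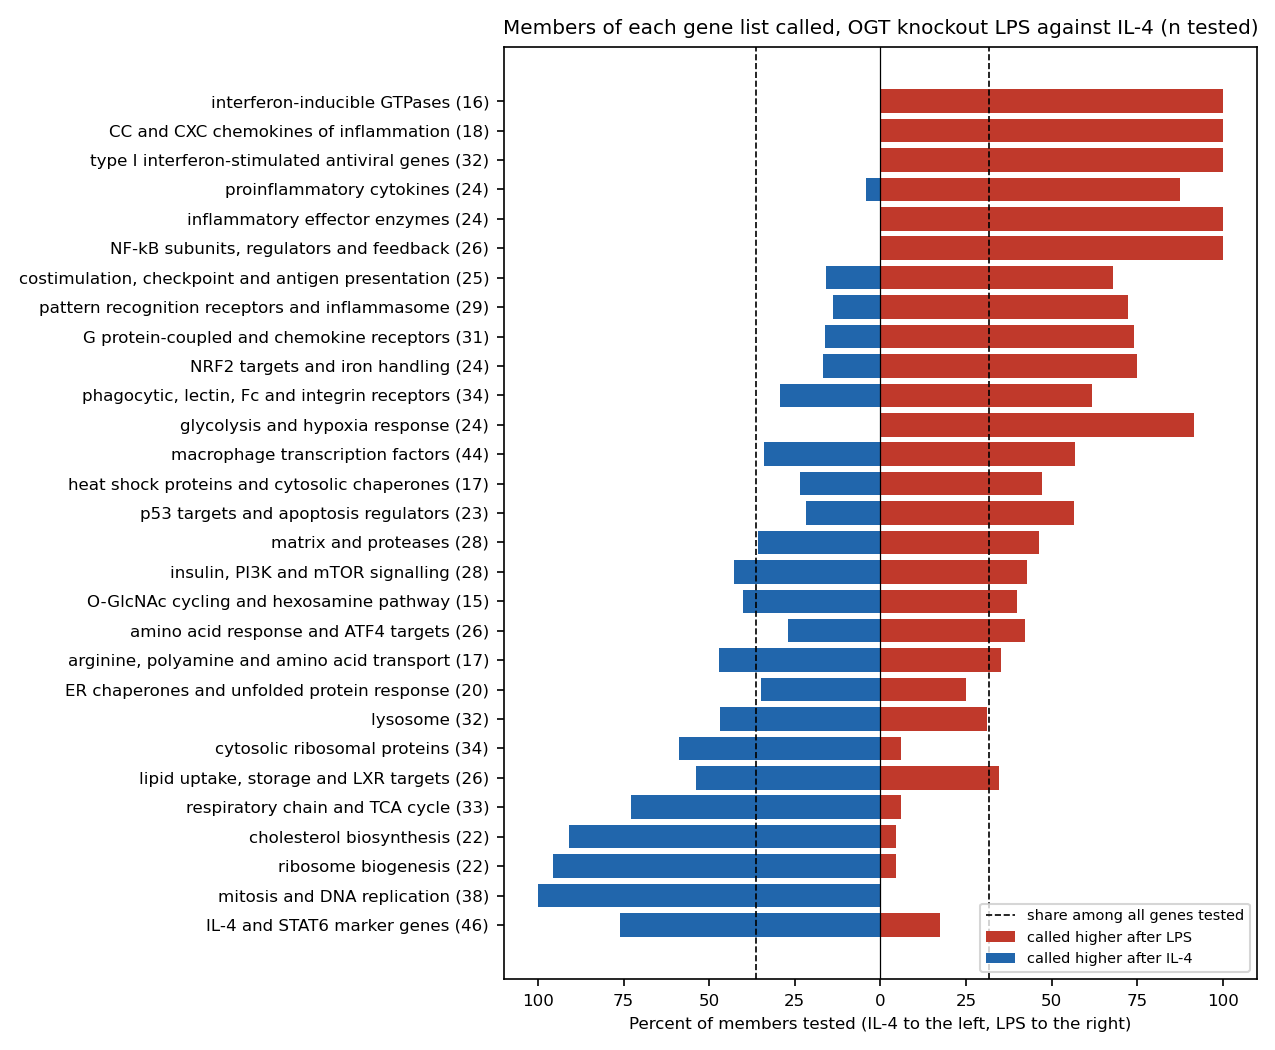
Percent of the tested members of 29 gene lists called higher after LPS (red, right) or after IL-4 (blue, left) in KO cells, with the number tested in brackets, sorted by median log2 fold change. Dashed lines mark the shares among all 14693 genes, 31.6% and 36.2%; 5 inflammatory lists reach 100% on the LPS side and mitosis and DNA replication reaches 100% on the IL-4 side.

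Macrophage transcription factors were called higher in LPS in 25 of 44 cases (56.8%) and higher in IL-4 in 15 (34.1%), against 31.6% and 36.2% of all genes. Irf4, which partners with other factors at M2 genes, was at 0.495, 0.294, 0 and 0.187 CPM in LPS and 37.9, 34.3, 21.1 and 19.3 CPM in IL-4 (log2 fold change -6.42 ± 0.37, adjusted p = 2.24e-14), and IL-4 libraries 5 and 6 were above 7 and 8. Pparg, the fatty acid-sensing nuclear receptor, was at 8.55 ± 2.34 CPM in LPS and 70.8 ± 5.38 CPM in IL-4 (SD, n = 4). Its nuclear receptor relative Nr1h3 (LXRα) had the opposite sign, at 193, 183, 126 and 194 CPM in LPS and 20.3, 20.4, 17.8 and 19.9 CPM in IL-4 (log2 fold change 3.25 ± 0.067, adjusted p = 1.45e-23). The BATF family was split: Batf was at 131 ± 15.7 and 4.54 ± 0.264 CPM in LPS and IL-4, Batf2 differed by 4.71 ± 0.22, and Batf3 by -3.66 ± 0.18. Cebpb was at 509, 425, 173 and 266 CPM in LPS, with library 7 the lowest, and 103, 119, 127 and 100.4 CPM in IL-4.

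Among G protein-coupled and chemokine receptors, 23 of 31 were called higher in LPS and 5 higher in IL-4. The formyl peptide receptors Fpr1 and Fpr2, which sense bacterial peptides, were at 289, 280.5, 144 and 211 CPM and 192, 189.5, 114 and 132 CPM in LPS and at no more than 0.245 and 0.153 CPM in IL-4. Gpr84, which senses medium-chain fatty acids, differed by 8.78 ± 0.23. Higher in IL-4 were P2ry1, an ADP receptor, at 55.5 ± 5.45 against 1.5 ± 1.08 CPM (SD, n = 4), the prostaglandin E2 receptor Ptger2 (-1.53 ± 0.091) and the chemokine receptors Ccr1 (-1.11 ± 0.072) and Cxcr4 (-2.35 ± 0.12). Cxcr4 was below M0 (92.7 ± 9.03 CPM) in both states, and so was Cx3cr1 (104 ± 6.03 CPM in M0), which stood at 24.4, 22.3, 23.9 and 46.1 CPM in LPS and 2.24, 2.49, 2.58 and 2.52 CPM in IL-4.

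Of 34 phagocytic, lectin, Fc and integrin receptors, 21 (61.8%) were called higher in LPS and 10 (29.4%) in IL-4, against 31.6% and 36.2% of all genes. Fcgr1, the high-affinity IgG receptor, was at 1566 ± 262 CPM in LPS and 72.2 ± 9.27 CPM in IL-4, 22.1-fold apart. Siglece, an inhibitory sialic acid receptor, and Itgal, the alpha chain of LFA-1, had log2 fold changes of 8.64 and 4.63. Of the scavenger receptors, Msr1 was higher in LPS (1.87 ± 0.10) and Cd36 higher in IL-4, at 177, 192, 173 and 149 CPM against 632, 567, 552 and 558 CPM.

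Glycolysis and hypoxia genes were called higher in LPS in 22 of 24 cases and none was called higher in IL-4, with a median of 0.93. Pfkfb3, which makes the activator of phosphofructokinase, was at 528, 552, 443 and 515 CPM in LPS and 60.2, 61.4, 70.7 and 70.9 CPM in IL-4, 7.94-fold apart (log2 fold change 2.99 ± 0.081, adjusted p = 2.96e-21). Hk1 differed by 1.66 ± 0.067, Hk2 by 0.84 ± 0.088, the HIF targets Egln3 and Bnip3 by 3.06 ± 0.11 and 1.98 ± 0.086, and Vegfa, the endothelial growth factor, by 1.99 ± 0.073. Respiratory chain and TCA cycle genes had the opposite balance, with 24 of 33 called higher in IL-4, 2 higher in LPS and a median of -0.35. The isocitrate dehydrogenase genes Idh1, Idh2 and Idh3a were at 244 ± 23.2, 126 ± 15 and 66 ± 3.25 CPM in IL-4 and at 70.4 ± 8.82, 43 ± 4.98 and 30.5 ± 4.59 CPM in LPS (SD, n = 4). Fh1, fumarate hydratase, differed by -1.07 ± 0.054. Cox5a, a subunit of cytochrome oxidase, was higher in LPS by 0.44 ± 0.079 (SE, adjusted p = 2.46e-05), and the other member higher in LPS, Ndufa1, lost its call under 9 alternatives. Upper-quartile scaling moved the median of all genes by -0.12, so differences of this size are read relative to that shift.

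Cholesterol biosynthesis was called higher in IL-4 in 20 of 22 cases, median -0.66. Dhcr7, the enzyme of the last step to cholesterol, was at 19.8, 19.5, 5.98 and 13.9 CPM in LPS and 65.7, 67.2, 62.6 and 49.7 CPM in IL-4 (log2 fold change -1.80 ± 0.10, adjusted p = 2.33e-14). Stard4, a sterol carrier, differed by -1.05 ± 0.11. Lipid uptake, storage and LXR target genes were mixed, with 14 of 26 (53.8%) higher in IL-4 and 9 (34.6%) in LPS. Of all genes, 36.2% and 31.6% were. Lpl, which releases fatty acids from lipoproteins, was at 1205 ± 82.1 CPM in IL-4 and 246 ± 18.2 CPM in LPS (SD, n = 4), and the fatty acid synthase gene Fasn and the lysosomal lipase gene Lipa had the same direction (-1.80 and -1.37). Abca1, which exports cholesterol, was higher in LPS, at 220.0, 242, 221 and 249 CPM against 51.6, 48.7, 67.6 and 62.5 CPM, as was the phospholipid transfer protein gene Pltp (1.18 ± 0.084).

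Arginine, polyamine and amino acid transport genes were called higher in IL-4 in 8 of 17 cases (47.1%) and in LPS in 6 (35.3%). Of all genes, 36.2% and 31.6% were. Besides Arg1, the spermidine synthase gene Srm was higher in IL-4, at 123, 135, 126 and 119.6 CPM against 53.8, 54.8, 53.8 and 53.2 CPM. Smox, which breaks spermine down to spermidine, was higher in LPS, at 85.3, 85.1, 114 and 84 CPM against 24, 23.9, 23.8 and 27 CPM. The cystine transporter genes Slc7a11 and Slc3a2 were both higher in LPS, by 3.13 ± 0.12 and 1.34 ± 0.073.

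Genes of NRF2 and iron handling were called higher in LPS in 18 of 24 cases and in IL-4 in 4 (median 1.34). Fth1, the heavy chain of the iron store ferritin, was at 21362, 21262, 14370.0 and 16889 CPM in LPS and 2121, 2097, 2142 and 2173 CPM in IL-4, 8.67-fold apart (log2 fold change 3.12 ± 0.10, adjusted p = 9.97e-20). Hmox1, which releases iron from haem, was at 2272 ± 451 and 304 ± 10.2 CPM (SD, n = 4). Tfrc, the transferrin receptor that brings iron in, was at 39.5, 43.7, 71.8 and 48.4 CPM in LPS, 86.7, 84, 83.3 and 86 CPM in M0 and 482, 457, 401 and 387 CPM in IL-4, so ferritin heavy chain and transferrin receptor had opposite signs (log2 fold change -3.29 ± 0.085, adjusted p = 9.64e-22). Steap4, a metalloreductase, differed by 3.63 ± 0.40. Slc40a1, the iron exporter ferroportin, was at 53.9, 57.9, 29.9 and 29.5 CPM in LPS and 24.1, 22.2, 14.5 and 13.7 CPM in IL-4, both below all M0 values of 175, 159, 94.5 and 96.8 CPM.

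Lists of stress genes were divided, against 31.6% of all genes called higher in LPS and 36.2% higher in IL-4. Amino acid response genes were called higher in LPS in 11 of 26 cases and in IL-4 in 7 (median -0.01); Ddit3 (CHOP), Nupr1 and Ddit4 were higher in LPS (1.57 ± 0.072, 1.70 ± 0.12 and 1.78 ± 0.16), and Atf5 and the serine synthesis genes Psat1 and Phgdh higher in IL-4 (-0.65 ± 0.079, -0.54 ± 0.076 and -0.48 ± 0.078). Without IL-4 library 5 or 6 the count in the IL-4 direction was 11. Among ER chaperones, 5 of 20 were higher in LPS and 7 in IL-4. The count in the IL-4 direction was 11 with upper-quartile factors and without IL-4 library 6 or 7, and 12 without IL-4 library 8. Pdia4, a protein disulfide isomerase, was at 659, 655, 585 and 609 CPM in IL-4, 214, 215, 203 and 223 CPM in LPS and 161 ± 3.64 CPM in M0 (SD, n = 4). Of 17 heat shock genes, 8 were higher in LPS and 4 in IL-4, against 8 in IL-4 without IL-4 library 6. Hspa1a and Hspa1b, near-identical copies whose reads may be shared, were at 185, 175, 53.8 and 90.6 CPM and 158, 145, 138 and 89.7 CPM in LPS and at 6.16 ± 0.543 and 15 ± 1.38 CPM in IL-4.

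Mitosis and DNA replication was the most uniform list on the IL-4 side: all 38 genes were called higher in IL-4, with a median of -1.61 and at least 4-fold in 5. Kif11, a spindle motor, was at 7.33, 7.48, 12 and 8.85 CPM in LPS, 27.8, 29.3, 28.5 and 26.7 CPM in M0 and 41.1, 40.4, 36.4 and 34.4 CPM in IL-4, and Mcm2, a subunit of the replicative helicase, at 27, 24.9, 5.98 and 23.9, 66.3, 68.9, 62.1 and 58.2 and 115, 121, 97.1 and 97.3 CPM. For both genes all IL-4 values lay above all M0 values and all LPS values below them. Aurkb and Kif23 differed by -2.14 ± 0.11 and -2.45 ± 0.11. Ribosome biogenesis was called higher in IL-4 in 21 of 22 cases (median -0.71), led by Dkc1, which modifies ribosomal RNA, at 39.8 ± 3.19 against 11.1 ± 3.52 CPM (SD, n = 4). Wdr43 was the exception, higher in LPS by 0.38 ± 0.069 (SE, adjusted p = 2.71e-05). Cytosolic ribosomal proteins were called higher in IL-4 in 20 of 34 cases and in LPS in 2 (median -0.24), for example Rpl8 (-0.56 ± 0.08) against Rps24 (0.31 ± 0.078). Without KO numbers 5 and 6 the count in the IL-4 direction was 10.

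Of 23 p53 and apoptosis genes, 13 (56.5%) were called higher in LPS and 5 (21.7%) in IL-4, against 31.6% and 36.2% of all genes. Fas, the death receptor, was at 55.1, 55.4, 95.7 and 52.3 CPM in LPS and 6.84, 7.46, 8.1 and 8.71 CPM in IL-4, and the NF-kB target Gadd45b differed by 2.17 ± 0.097. The survival genes Bcl2a1d and Bcl2a1a, near-identical copies, were higher in LPS (4.70 and 6.02), while Bcl2 was higher in IL-4 (-1.41 ± 0.099) with overlap only through library 7, at 17.9 CPM from 3 counts. Sesn1, a p53 target, was at 20.5 ± 5.8 CPM in LPS, 67.5 ± 2.21 CPM in IL-4 and 148 ± 24.6 CPM in M0.

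Lysosomal genes were called higher in LPS in 10 of 32 cases (31.2%) and in IL-4 in 15 (46.9%), against 31.6% and 36.2% of all genes. Cathepsin genes differed in direction: Ctsc was at 1794, 1825, 1555 and 1493 CPM in LPS and 333, 336, 290.4 and 282 CPM in IL-4, whereas Ctsl was at 693, 708, 724 and 745 CPM in LPS and 1502, 1480.2, 1768 and 1969.7 CPM in IL-4. The lysosomal cholesterol exporters were split as well, with Npc2 higher in LPS (1.58 ± 0.093) and Npc1 higher in IL-4 (-1.22 ± 0.09). Tfeb, the transcription factor of lysosome genes, differed by -1.36 ± 0.13. Among 28 matrix and protease genes, 13 (46.4%) were higher in LPS and 10 (35.7%) in IL-4, against the same shares of all genes. On the LPS side were Mmp3 (7.32 ± 0.34), Mmp13 (2.98 ± 0.25), Mmp9 (2.77 ± 0.17) and Mmp14 (1.95 ± 0.12). On the IL-4 side were Mmp12 (-1.67 ± 0.11), Mmp19 (-1.75 ± 0.07) and Adam8 (-1.43 ± 0.081). Stromal marker levels, given above, were higher in LPS too, and their part in the matrix genes was not tested.

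Of 15 O-GlcNAc cycling and hexosamine genes, 6 (40.0%) were called in each direction, near the 31.6% (LPS) and 36.2% (IL-4) of all genes. Their median of 0.001 was also near the -0.05 of all genes. Gfpt1, the rate-limiting enzyme of the hexosamine pathway that supplies OGT's substrate, was at 110.3, 118, 108 and 108 CPM in LPS and 56.2, 56.4, 65.2 and 66.5 CPM in IL-4 (log2 fold change 0.87 ± 0.083, adjusted p = 6.41e-10). Gnpda1, which runs the pathway backwards towards glycolysis, was at 34.6, 38, 12 and 28.7 CPM in LPS and 124, 128, 113 and 105 CPM in IL-4 (log2 fold change -1.81 ± 0.091, adjusted p = 1.23e-15). Both are without overlap and of opposite sign. Mgea5 was higher in LPS by 0.19 ± 0.059 (SE, adjusted p = 0.00648) and lost its call in 8 alternatives.

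Insulin, PI3K and mTOR genes were called higher in LPS in 12 of 28 cases (42.9%) and in IL-4 in 12 (42.9%). Of all genes, 31.6% and 36.2% were. Pik3ap1, an adaptor between Toll-like receptors and PI3K, was at 873 ± 198 CPM in LPS and 83.9 ± 5.91 CPM in IL-4 (SD, n = 4), and Pik3r5 was also higher in LPS (1.90 ± 0.095). Igf1, a growth factor made by macrophages, was at 111, 118, 132 and 119.8 CPM in LPS, 275, 268, 235 and 241 CPM in M0 and 499.6, 489, 429 and 456 CPM in IL-4. Irs1, Irs2 and the mTOR inhibitor Deptor were higher in IL-4 (-1.01 ± 0.11, -1.92 ± 0.16 and -3.18 ± 0.17).

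The same contrast in WT cells called 4553 genes higher in LPS and 4687 higher in IL-4. The size of the LPS to IL-4 difference itself differed between genotypes for 1748 genes (11.9%), 1050 with KO minus WT positive and 698 negative. Which sign was more frequent depended on the scaling and the libraries: with upper-quartile factors there were 829 positive and 1026 negative, and negative differences outnumbered positive ones in 10 of 26 alternatives, 8 of them leaving out 1 IL-4 library. Among genes also called in KO, 640 on the LPS side were further apart in KO and 129 closer, and on the IL-4 side 435 were further apart and 273 closer. These counts depended on single libraries. Without WT LPS library 3 there were 651 positive and 257 negative differences. The negative count was 351 without WT LPS library 4 and 463 without KO LPS library 6, and the positive count was 685 without KO IL-4 library 7 and 694 without WT IL-4 library 2. With DESeq2 they were 664 and 271, and with the libraries of each number pair summed, which leaves 2 per group, 67 and 30.

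**Figure D4:**
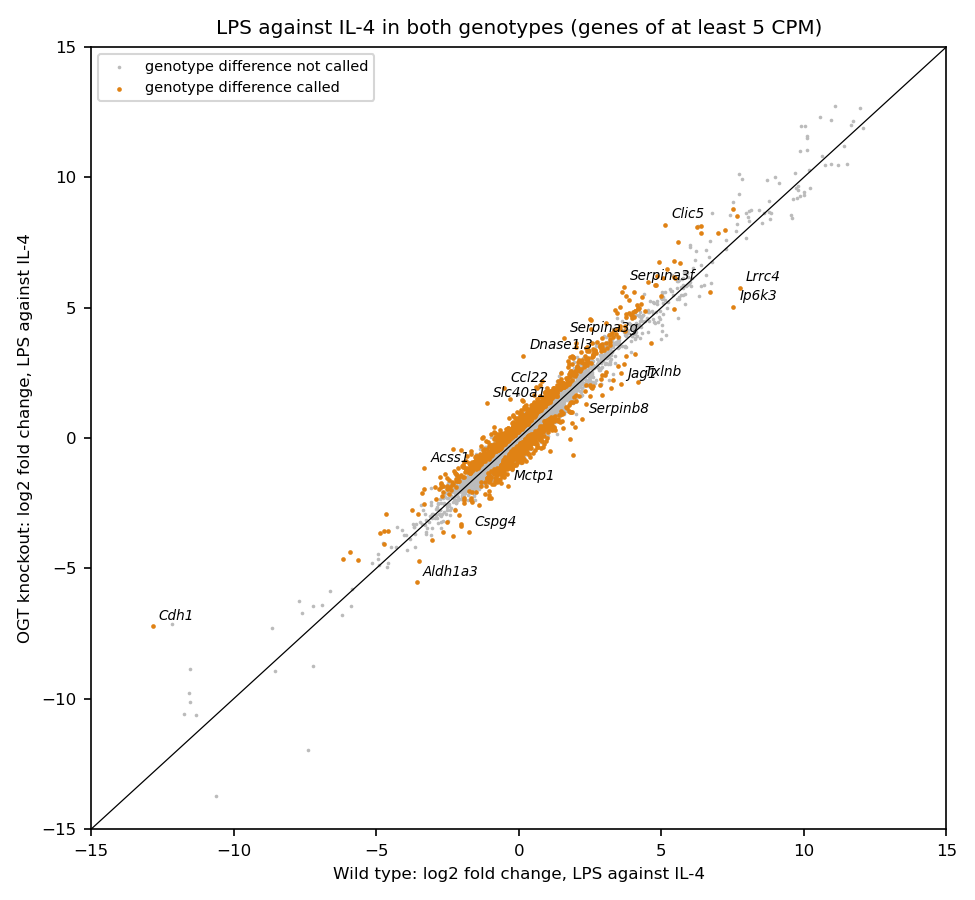
Log2 fold change of LPS against IL-4 in WT (horizontal) and KO (vertical) for genes of at least 5 CPM in any of the 4 groups, with genes whose genotype difference is called in orange, the 16 named genes labelled and the diagonal of equal change. Most points lie along the diagonal; Ccl22 and Slc40a1 are above 0 in KO and below 0 in WT.

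Slc40a1 and Ccl22 had opposite signs in the genotypes. In WT, Slc40a1 was at 0, 10.5, 11.3 and 9.93 CPM in LPS and 25.7, 23.4, 18.9 and 23.9 CPM in IL-4, where IL-4 stood higher, while in KO, as given above, LPS stood higher. The difference of the log2 fold changes was 2.45 ± 0.34 (SE, adjusted p = 4.03e-05). Ccl22 was at 10.3, 0, 3.54 and 3.24 CPM in LPS and 5.05, 5.87, 4.37 and 4.39 CPM in IL-4 in WT, with a WT log2 fold change of -0.52 against 1.92 in KO (KO minus WT 2.44 ± 0.28, adjusted p = 2.94e-06). The WT values of Ccl22 overlapped only through the shallow LPS library 1, where a single count is worth 5.16 CPM. The deep WT LPS libraries 3 and 4 lay below all WT IL-4 values.

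Acss1, mitochondrial acetyl-CoA synthetase, had the smallest adjusted p of the named genes. It was at 13.5, 14.7, 17.9 and 18.1 CPM in LPS and 35.6, 34.8, 33.3 and 34.1 CPM in IL-4 in KO, and at 0, 0, 3.71 and 2.73 CPM and 29.9, 31.3, 34.6 and 32.1 CPM in WT. The IL-4 values of the genotypes overlapped, the LPS values of the deep libraries did not, and the states were closer in KO by 2.17 ± 0.19 (SE, adjusted p = 5.38e-08). Clic5, a chloride channel family protein, was at 67.7, 71.3, 47.8 and 52.7 CPM in KO LPS and 0, 10.5, 7.22 and 8.47 CPM in WT LPS, with IL-4 at no more than 0.343 CPM in both genotypes (KO minus WT 3.04 ± 0.48, adjusted p = 0.000169). Serpina3g, a protease inhibitor with close paralogues, was at 216, 209.8, 71.8 and 117 CPM in KO LPS and 36.1, 26.2, 40.1 and 45.5 CPM in WT LPS (KO minus WT 2.23 ± 0.25, adjusted p = 2.33e-06), and its neighbour Serpina3f differed by 2.13 ± 0.41 (SE, adjusted p = 0.000975). Dnase1l3, a secreted DNase, was at 10.4, 10.2, 0 and 7.89 CPM in KO LPS, where the 0 of library 7 lies within its counting limit, and 1.22, 1.13, 0.968 and 0.844 CPM in KO IL-4. In WT it was at 5.16, 0, 0.78 and 0.909 CPM and 0.814, 0.602, 0.938 and 0.728 CPM, and the difference was 3.01 ± 0.33 (SE, adjusted p = 2.22e-06). Cdh1 had no count in any WT LPS library, so its fitted difference of 5.61 ± 1.64 (SE, adjusted p = 0.0285) is no bound. The call was lost without KO LPS library 6 or 8 (adjusted p = 0.0666 and 0.052), without WT LPS library 3 or 4 (0.132 and 0.114), without KO numbers 5 and 6 or 7 and 8 (0.061 and 0.0547) and with number pairs summed (0.213).

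Genes with a smaller LPS excess or a larger IL-4 excess in KO included Serpinb8, an intracellular protease inhibitor, at 10.7, 10.9, 12 and 10.9 CPM in LPS and 7.01, 5.83, 7 and 6.54 CPM in IL-4 in KO and 15.5, 5.23, 16.6 and 15.1 CPM and 3.2, 3.33, 3.58 and 3.27 CPM in WT (KO minus WT -1.51 ± 0.14, adjusted p = 1.5e-07). Jag1, a Notch ligand, was at 73.7, 75.3, 77.7 and 105 CPM in KO LPS and 129, 105, 115 and 108 CPM in WT LPS, and at 16.6, 15.4, 25.2 and 22.7 CPM and 7.77, 8.72, 10.8 and 10.3 CPM in IL-4 (KO minus WT -1.49 ± 0.24, adjusted p = 0.000159). The KO against WT difference was -1.98 ± 0.30 (SE, adjusted p = 0.00011) for Lrrc4 and -2.06 ± 0.37 (SE, adjusted p = 0.000557) for Txlnb, both less far apart in KO. Ip6k3, an inositol hexakisphosphate kinase, was at 9.03, 8.24, 0 and 7.63 CPM in LPS and 0.235, 0.331, 0.223 and 0.201 CPM in IL-4 in KO, and at 0, 0, 1.85 and 2.44 CPM and 0.0247, 0.014, 0 and 0 CPM in WT, so both states were higher in KO in the deep libraries and the ratio was smaller (KO minus WT -2.47 ± 0.70, adjusted p = 0.0208). Its call was lost without WT LPS library 4, WT IL-4 library 3 or WT IL-4 library 4 (adjusted p = 0.0675, 0.0568 and 0.0518) and with number pairs summed (0.222). Aldh1a3, which makes retinoic acid, was further apart on the IL-4 side, -5.53 in KO and -3.57 in WT (KO minus WT -1.96 ± 0.47, adjusted p = 0.00723), as was Cspg4, a proteoglycan of pericytes (KO minus WT -1.85 ± 0.25, adjusted p = 3.05e-05). Mctp1 was at 2.06, 2.4, 12 and 2.5 CPM in KO LPS, with 12 CPM from 2 counts in library 7, and 8.38, 7.55, 9.47 and 8.47 CPM in KO IL-4 (KO minus WT -1.46 ± 0.19, adjusted p = 1.33e-05). With number pairs summed, 8 of the 16 named genes kept a call: Acss1, Ccl22, Clic5, Dnase1l3, Lrrc4, Mctp1, Serpina3g and Serpinb8. All 16 kept it without the shallow libraries. DESeq2 gave an adjusted p for only 8 of the 16, and these 8 were called.

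Of 12 polarization markers and regulators, Il6 and Mrc1 had a called genotype difference. Among all genes tested 11.9% had one, so this count is near the background. Il6 was at 25.8, 31.4, 21.2 and 28.7 CPM in WT LPS and 1.02, 0.966, 0.709 and 0.585 CPM in WT IL-4, so the LPS to IL-4 difference was larger in KO by 1.80 ± 0.31 (SE, adjusted p = 0.000352). Mrc1 was at 46.4, 10.5, 46.3 and 45.6 CPM in WT LPS and 2204, 2128, 2321 and 2226 CPM in WT IL-4. The LPS level was higher in KO and the states were closer there by 0.97 ± 0.20 (SE, adjusted p = 0.00157), a call lost with number pairs summed. For Arg1 the difference was 0.05 ± 0.30 (SE, adjusted p = 0.94), for Retnla 0.72 ± 1.27 (SE, adjusted p = 0.77), for Chil3 -0.40 ± 0.37 (SE, adjusted p = 0.535) and for Tnf 0.43 ± 0.19 (SE, adjusted p = 0.141), none past the threshold. Without KO LPS library 8, the lowest for Tnf, its difference was called (0.55, adjusted p = 0.0403). Nos2 had a WT LPS mean of 93.1 ± 13.9 CPM (SD, n = 4) against 428 ± 154 CPM in KO, and its difference was 2.05 ± 0.88 (SE, adjusted p = 0.136). It was called without KO numbers 5 and 6 (2.84, adjusted p = 0.0252).

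Motif matches in the 250 bases before the start site were counted for the 11539 tested genes with a RefSeq promoter, among them 744 called at least 4-fold higher in LPS and 328 at least 4-fold higher in IL-4. The response element core was found in 12.4% of the LPS class, 2.1% of the IL-4 class and 2.8% of all. The NF-kB consensus was found in 13.6%, 8.2% and 8.8%, and the STAT palindrome TTCNNNGAA in 9.5%, 5.2% and 5.9%. The STAT6 palindrome was found in 5.8% of the LPS class, 9.8% of the IL-4 class and 4.8% of all, so its share was highest in the IL-4 class. Both strands were read, and these shares are given as descriptions without a test.

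**Figure D5:**
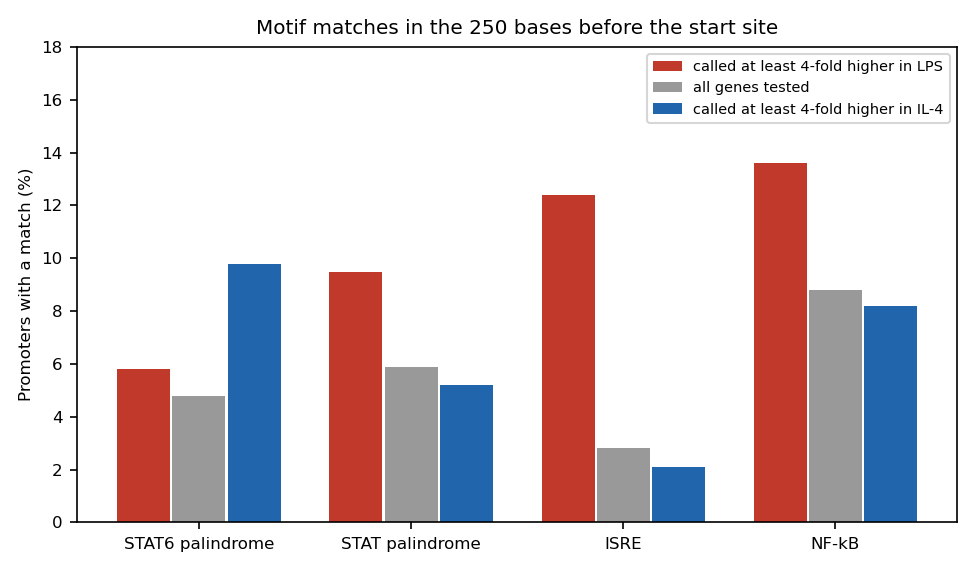
Percent of promoters with at least 1 match to each of 4 motifs, for genes called at least 4-fold higher after LPS (red, 744 promoters), all tested genes (grey, 11539) and genes called at least 4-fold higher after IL-4 (blue, 328) in KO cells. The response element bar of the LPS class is at 12.4% against 2.8% for all genes, and the STAT6 bar of the IL-4 class is at 9.8% against 4.8%.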

How the data were processed

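RNA-seq of 24 libraries was used, 4 in each of 6 groups. The values are raw counts per gene that the authors deposited, 1 file per library with 24421 genes. Reads were aligned and counted with TopHat2 2.1.0 and HTSeq 0.9.1 on mm10, per the submitters' processing notes. The sources used here do not give the library kit, strand setting or annotation, so overlapping and antisense genes cannot be told apart. The 5 summary lines of each file (8.76 to 9.98% of counts) were left out. Genes passing filterByExpr by group were fitted in 1 model of all 24 libraries (18 residual degrees of freedom) with edgeR 4.0.16 (R 4.3.3), TMM factors and the quasi-likelihood test. A gene is called where its p-value, adjusted by Benjamini-Hochberg over the 14693 genes tested, is under 0.05. Every adjusted p given is from this test unless another setting is named. The SE was derived from the F statistic.

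On simulated counts for 14249 genes of KO LPS against KO IL-4, the test recovered 86.6% of 1.5-fold, 98.5% of 2-fold and 100% of 4-fold changes, and 7.32% of its calls were false. Only 67, 67 and 66 genes were changed at these folds, in both directions, and the libraries were drawn independently. In the data 67.8% of genes were called and some libraries resembled each other, so these rates need not hold there. Total counts ranged from 172771 to 94942464. Alternatives were RLE and upper-quartile factors, DESeq2 1.42.0, no filter, the KO libraries alone, a replicate block, summed number pairs and leaving out libraries; TMM on genes of at least 50 CPM was added after seeing the data.

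Named genes were 14 polarization and OGT genes, the 15 called genes with the largest fold change in each direction (at least 5 CPM, no overlap), up to 4 called genes per list and direction, and 8 genes per direction of the genotype difference. The members and lists were chosen with earlier results of these data known. Promoter sequences come from RefSeq, GRCm38.p6, with an entry for 11539 tested genes. Results for some genes are not reported here.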

Additional observations from a re-analysis of the deposited data

Results flagged for a closer look

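In groups of 4 libraries, single values far from the other 3 were sought for 53 genes in both KO states, 106 groups in all, by Dixon's criterion at 95%. Chance gives about 1 in 20 groups for independent, normally distributed values. The genes here share libraries and some groups hold few counts, so that rate need not hold. The criterion picked out 13 values. Of these, 6 were in the shallow KO LPS library 7, where 1 count is worth 5.98 CPM: Chil3, Gbp10 and Lrrc4 at 5.98 CPM, Mctp1 at 12 CPM, and Il6 and Ip6k3 at 0. The other libraries were at 40.4 to 47.1 CPM for Il6 and 7.63 to 9.03 CPM for Ip6k3. Low counts also lay behind Cxcl11 in IL-4 library 5 (0.0409 CPM, 4 counts), Gja5 in LPS library 6 (0.0367 CPM, 2 counts) and Msx3 in LPS library 5 (0.0661 CPM, 4 counts), each with 0 in the other libraries. At high counts, library 8 stood apart for 4 values. Tnf was lowest there in both states, at 212 CPM in LPS (others 273 to 275) and 2.3 CPM in IL-4 (others 3.32 to 3.51). Jag1 in LPS was at 105 CPM (others 73.7 to 77.7), and Arg1 in IL-4 at 7044 CPM (others 5763 to 5877).

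The same 53 genes were searched for a genotype difference in the log2 fold change of LPS against IL-4. By edgeR's quasi-likelihood test of that difference, 18 were called. Of these, 16 had been named because this test called them, so their calls were fixed in advance. Other named genes were not searched here. KO minus WT was positive for Cdh1 (5.61), Clic5 (3.04), Dnase1l3 (3.01), Slc40a1 (2.45), Ccl22 (2.44), Serpina3g (2.23), Acss1 (2.17), Serpina3f (2.13), Il6 (1.80) and Mrc1 (0.97). It was negative for Ip6k3 (-2.47), Txlnb (-2.06), Lrrc4 (-1.98), Aldh1a3 (-1.96), Cspg4 (-1.85), Serpinb8 (-1.51), Jag1 (-1.49) and Mctp1 (-1.46).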

How the results depend on the processing

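Counts of calls between KO LPS and KO IL-4 ranged from 3718 to 5187 (higher in LPS) and 4117 to 6424 (higher in IL-4) over the alternatives run, and from 3855 to 4898 and 4614 to 6244 when 1 library was left out. Upper-quartile factors lowered the share of calls higher in LPS from 46.6% to 37.66%, and leaving out any KO IL-4 library lowered it to between 38.17% and 38.91%. It was 50.9% without the shallow libraries and 50.11% to 50.81% without KO LPS library 5, 6 or 8, so which state had more calls depended on the setting. The genotype difference was less stable: 664 positive and 271 negative with DESeq2, 67 and 30 with number pairs summed, 800 positive and 1121 negative with TMM on genes of at least 50 CPM, and 651 to 1324 positive and 257 to 960 negative when 1 library was left out. The causes were not tested.

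For KO LPS against KO IL-4, of 4720 pairs of a named gene and an alternative, 4654 kept direction and side of the threshold, 57 lost the call, 9 gained it and 0 reversed. For the genotype difference of 30 genes, 752 of 772 pairs did so, 18 lost the call and 2 gained it. Pairs without an adjusted p are not counted, and DESeq2 gave one for only 8 of the 16 genes named for this difference. Most genes in both sets were named because they were called in these data, which favours kept calls. Of 58 list counts, 10 changed without KO LPS library 7, by at most 1 gene, and 18 without the shallow libraries, by at most 4.

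Labels share numbers 5 to 8 between the KO states but do not say what a number marks. Over all genes, deviations of same-numbered LPS and IL-4 libraries correlated at 0.067, 0.037, -0.038 and 0.17 (numbers 5 to 8), and over 4163 genes of at least 50 CPM at 0.363, 0.363, 0.129 and 0.472, where 5 and 7 matched best with 6 and 8. A replicate block gave 5008 and 5616 calls over 24 libraries, 4621 and 5109 over the KO libraries alone, and 1544 positive and 1214 negative genotype differences. In KO LPS library 7, a gene without a count may be absent or lie anywhere up to 17.9 CPM, and a level from few counts is rough.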

Other observations

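Libraries 5 and 6 both stood above 7 and 8 for 35.1% of all 14693 genes tested within LPS and for 28.6% within IL-4. In LPS, library 7 lay 0.182 to 0.305 on the log2 scale below the others over 1119 abundant genes, and library 8 lay 0.118 below the mean of 5 and 6. Among the 15 largest LPS genes this held for 11 within LPS and for 12 within IL-4, where the same genes are nearly silent. Among the 15 largest IL-4 genes it held for 9 within IL-4 and 5 within LPS. The labels do not say what the numbers mark, and whether the pattern is particular to the genes that separate the states was not tested.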
